A study of Homo sapiens with 4 samples.

Results

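The 4 human HOX clusters were followed through a map of chromatin contacts in TDP-43 knockdown and control cells. Members were chosen by position: every listed pair of 50 kb bins of hg38 in which at least 1 bin overlaps the body of 1 of the 39 HOXA, HOXB, HOXC or HOXD genes. This gave 94 of 89239 listed pairs. HOXA on chromosome 7 has 28 pairs for 11 genes in 4 bins, HOXB on chromosome 17 has 25 pairs for 10 genes in 4 bins, HOXC on chromosome 12 has 23 pairs for 9 genes in 4 bins, and HOXD on chromosome 2 has 18 pairs for 9 genes in 3 bins. Of the 94 pairs, 15 are contacts within a HOX bin, 15 join HOX bins of the same cluster, and 64 join a HOX bin to a bin without a HOX gene. Several HOX genes share a bin, so a contact belongs to a bin and its genes together, and pairs that share a bin are not independent of each other.

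HOX genes encode homeodomain transcription factors that set position along the body axis and the limbs. Within a cluster they stand in the order in which they are used, from the group 1 genes of the hindbrain to the group 13 genes of the distal limb and the tail end of the trunk, and genes of the same number in different clusters are paralogs. Where the clusters are silent they are covered by Polycomb proteins and fold into compact, self-contacting domains, while active stretches leave that domain and contact enhancers in the surrounding DNA. In the mouse, the HOXD cluster has such enhancers on both sides, those for the digits on the HOXD13 side and those for the forearm on the HOXD1 side.

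The knockdown libraries, TDP43KD 1 and 2, came from SH-SY5Y, a human neuroblastoma cell line in long-standing use, with a stable lentiviral shRNA against TDP-43, an RNA- and DNA-binding protein. Puromycin selection of those cells lasted 2 weeks at 2 µg/mL, with 1 µg/mL thereafter. The other group was control 1 and 2 from the same line. The protocol also names an shRNA called shNC, but no label ties it to the control libraries, and no label says whether the 2 libraries of a group are separate cultures. The p-values then reflect nothing but how far these libraries differ, which may be technical. The assay was Micro-C, which cuts crosslinked chromatin with micrococcal nuclease and joins neighbouring ends, with equal numbers of cells per library. The listed pairs held 115168160 and 142424414 contacts in the knockdown libraries and 158400914 and 163147992 in the control libraries. Counts per HOX pair and library ran between 128 and 28604. Over all pairs log2 levels correlated at r = 0.993 between the knockdown libraries and 0.991 between the control libraries, against 0.984 to 0.987 between groups. The assay reads no RNA, so neither the depth of the knockdown, the activity of any HOX gene nor the cell type could be checked here, and copy number, which sets the level of a whole region, was not measured.

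The miRNAs and promoters of the clusters show what lies in these bins. RefSeq (GRCh38.p14) lists mature miRNAs in all 4 clusters, and those of the miR-196 and miR-10 families are known to target HOX messages. The 5p arms of miR-196b in HOXA and of miR-196a, which is encoded in both HOXB and HOXC, share the seed AGGUAGU and differ by A12C (miR-196a first, position counted from the 5′ end). They are printed to show that 1 seed is present in 3 of the clusters. Capitals mark the seed, bases 2 to 8.
miR-196b-5p (HOXA, chr7:27169528-27169549, minus strand): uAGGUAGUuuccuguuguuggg
miR-196a-5p (HOXB, chr17:48632532-48632553, minus strand, and HOXC, chr12:53991762-53991783, plus strand): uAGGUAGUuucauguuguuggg
miR-10a-5p (HOXB, chr17:48579904-48579926, minus strand): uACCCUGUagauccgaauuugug
miR-615-3p (HOXC, chr12:54034010-54034031, plus strand): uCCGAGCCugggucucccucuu

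The miR-196b gene lies in the HOXA3 to HOXA13 bin, and the miR-196a genes lie in the HOXB6 to HOXB9 bin and the HOXC10 to HOXC12 bin. All 3 of these bins had lower contacts within them in knockdown cells under the first of the 2 scalings described below, and none passed under the second. All 3 are among the highest 5% of bins by control level, of which 97.9% were lower under the first scaling. MIR10B of the HOXD cluster lies in the HOXD1 to HOXD4 bin. That bin and the bins of miR-10a and miR-615 were lower under the first scaling too, while the HOXB13 bin, with miR-3185, did not pass. RefSeq promoters, 250 bases before to 50 after the gene start, matched 20 of the 39 HOX genes in 27 entries. Most entries are of HOXA and HOXD, several of them of HOXA3. HOXB is present only through HOXB1, and HOXC only through a start shared by HOXC4 and HOXC5. The dinucleotide CG, which reads the same on both strands, was the only motif counted. It occurred 22 times in the median of these HOX entries (0 to 44), against 14 in the median of 35116 promoters (0 to 77). It was present in 26 of the 27 HOX entries, and 96.0% of all promoters hold it at least once. The 4 promoters below each lie in a bin of the 2 contacts between HOX bins that were lower under both scalings: HOXA4 and HOXA10 for the HOXA2 to HOXA6 and HOXA3 to HOXA13 bins, HOXD13 and HOXD10 for the HOXD12 to HOXD13 and HOXD8 to HOXD12 bins. These bins hold other HOX genes too, so the contacts are not those of the 4 promoters themselves. Capitals mark CG.
HOXA4 promoter (chr7:27130708-27131007, minus strand, 27 CG): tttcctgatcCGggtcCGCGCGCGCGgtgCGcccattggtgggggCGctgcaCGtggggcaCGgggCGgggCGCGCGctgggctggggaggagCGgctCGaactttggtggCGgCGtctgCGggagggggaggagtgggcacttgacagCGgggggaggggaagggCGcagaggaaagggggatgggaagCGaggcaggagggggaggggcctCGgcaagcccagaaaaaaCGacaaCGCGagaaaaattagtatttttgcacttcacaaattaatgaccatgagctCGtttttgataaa
HOXA10 promoter (1 of its 2 entries, chr7:27174271-27174570, minus strand, 25 CG): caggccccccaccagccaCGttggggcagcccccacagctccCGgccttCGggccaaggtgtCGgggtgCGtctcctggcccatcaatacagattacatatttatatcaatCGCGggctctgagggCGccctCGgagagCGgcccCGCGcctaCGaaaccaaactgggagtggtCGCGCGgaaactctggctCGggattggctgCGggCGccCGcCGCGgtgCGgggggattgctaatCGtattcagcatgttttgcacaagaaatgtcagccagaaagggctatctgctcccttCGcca
HOXD13 promoter (chr2:176092471-176092770, plus strand, 24 CG): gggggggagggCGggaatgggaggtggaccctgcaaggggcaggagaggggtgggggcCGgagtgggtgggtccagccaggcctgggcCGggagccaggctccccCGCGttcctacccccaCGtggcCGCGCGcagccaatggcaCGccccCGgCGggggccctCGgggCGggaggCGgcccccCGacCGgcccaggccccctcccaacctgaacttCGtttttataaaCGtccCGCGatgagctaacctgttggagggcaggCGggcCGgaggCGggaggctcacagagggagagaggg
HOXD10 promoter (chr2:176116528-176116827, plus strand, 23 CG): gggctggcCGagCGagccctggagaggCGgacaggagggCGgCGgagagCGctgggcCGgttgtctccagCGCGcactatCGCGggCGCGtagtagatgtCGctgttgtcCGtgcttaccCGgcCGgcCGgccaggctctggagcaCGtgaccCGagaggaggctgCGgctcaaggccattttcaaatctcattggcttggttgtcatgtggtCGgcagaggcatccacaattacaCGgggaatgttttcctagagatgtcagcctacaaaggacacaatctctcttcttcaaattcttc

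Of the 94 HOX pairs, 16 fell and 5 rose in knockdown cells at an edgeR adjusted p below 0.05, with library sizes scaled by TMM (the trimmed mean of M-values). That is 22.3% of the HOX pairs, against 16.2% of all pairs (10.5% lower and 5.76% higher). Fold changes in these data drift with contact level, so a second scaling removed that drift with a loess curve per library. It left 5 lower and 3 higher HOX pairs, 8.51%, against 11.0% of all pairs (5.97% lower and 4.98% higher), and 7 pairs were called both ways. The HOX share thus lay above the share of all pairs under TMM and below it once the drift was removed, and neither count sets the clusters apart. The median log2 fold change was -0.06 over the HOX pairs and 0.02 over all pairs.

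Counted by cluster, the calls were mixed. HOXA had 6 lower and no higher pairs under TMM, 21.4% of its pairs, against 18.6% of all chromosome 7 pairs. HOXB had 2 lower and 4 higher, 24% against 20.6% on chromosome 17. HOXC had 4 lower and 1 higher, 21.7% against 14.9% on chromosome 12. HOXD had 4 lower and no higher, 22.2% against 15.1% on chromosome 2. After removal of the drift, HOXA kept 2 lower pairs, HOXB 2 higher, HOXC had 2 lower and 1 higher, and HOXD kept 1 lower. No test compared the clusters with each other. The median log2 fold change was -0.08 in HOXA, 0.12 in HOXB, -0.17 in HOXC and 0.08 in HOXD under TMM, and -0.08, 0.07, -0.17 and 0.00 in that order of clusters with the drift removed. In 35 HOX pairs both knockdown libraries lay below both control libraries, and in 24 both lay above. The share of all pairs whose groups did not overlap was 56.1% (26.3% lower, 29.8% higher).

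The strongest contacts of the clusters were those within their own bins. All 15 HOX bins lay in the highest 25% of within-bin control levels, 10 in the highest 10% and 7 in the highest 5%. The top was the bin chr7:27150001-27200000, which holds HOXA7, HOXA9, HOXA10, HOXA11, most of HOXA13 and the start of the longest HOXA3 transcripts. Its contacts numbered 15912 and 20271 in the knockdown libraries and 25217 and 28604 in the control libraries. As CPM, counts scaled to a common library size, these were 131 and 136 in knockdown, against 165 and 186 in control. The control mean was 23.9 times the median within-bin level. Levels and ranks, here and below, rest on counts scaled by library alone. They were not corrected for differences between bins in mappability or base composition. HOXA9 and HOXA10 are best known from blood stem cells and leukaemia, and HOXA11 and HOXA13 from limb, kidney and genital tract development.

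Under TMM, within-bin contacts fell in 11 of the 15 HOX bins and rose in none, against 14.3% lower and 7.40% higher over all within-bin pairs. With the drift removed none of the 15 passed, against 13.0% of all within-bin pairs, and the HOX log2 fold changes ran between -0.04 and 0.11 with a median of 0.01. In 10 of the 15 bins the sign itself turned between the scalings. The lower level under TMM was shared with other regions of like level: all 7 HOX bins of the highest 5% were lower, and so were 97.9% of all bins in that class. Once the drift was removed, 40.5% of that class passed in either direction, and none of the 7 HOX bins. Of the 11 calls, 5 were lost without knockdown 1 (the HOXA13 start, HOXB3 to HOXB6, HOXC10 to HOXC12, downstream HOXC4 and HOXD1 to HOXD4 bins) and 5 without knockdown 2 (the same bins but for HOXD12 to HOXD13 in place of HOXC10 to HOXC12).

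In the HOXA3 to HOXA13 bin the mean was 134 ± 3.44 CPM in knockdown, against 175 ± 14.7 CPM in control (SD, n = 2 each here and below), a log2 fold change of -0.39 ± 0.06 (SE; edgeR adjusted p = 6.78e-09) that became 0.06 with the drift removed. The neighbouring HOXA2 to HOXA6 bin, with the hindbrain gene HOXA2, had 65.8 and 67.5 CPM in knockdown and 79.8 and 84.3 CPM in control. Its log2 fold change was -0.30 ± 0.05 under TMM and -0.01 with the drift removed. In both bins the groups did not overlap, as in 56.1% of all pairs. The bin past HOXA13, which carries the start of that gene and EVX1, a homeobox gene beside the cluster, held 78.9 and 78.4 CPM in knockdown and 89.3 and 101 CPM in control (log2 fold change -0.27, and 0.05 with the drift removed).

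In HOXC, too, the inner bins were stronger than the outer ones. The HOXC10 to HOXC12 bin had 99.1 and 102 CPM in knockdown, against 120 and 126 CPM in control (log2 fold change -0.29, and 0.09 with the drift removed). The HOXC4 to HOXC9 bin, with HOXC9, a regulator of thoracic motor neurons, had 88.8 and 90.1 CPM in knockdown, against 112 and 116 CPM in control (log2 fold change -0.35, and 0.01 with the drift removed). In these 2 bins no knockdown library reached a control library, as in 26.3% of all pairs. The outer bins were lower: the bin with only the downstream end of HOXC4 had 32.8 ± 0.62 CPM in knockdown against 37.0 ± 0.23 CPM in control (log2 fold change -0.17), and the HOXC13 bin, with the hair and nail gene of the cluster, had 22.5 ± 0.82 CPM in knockdown against 22.8 CPM in control and did not pass (log2 fold change -0.02; edgeR adjusted p = 0.890).

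In HOXD the middle bin, HOXD8 to HOXD12, had 86.9 and 88.0 CPM in knockdown, against 109 and 112 CPM in control (log2 fold change -0.34, and 0.01 with the drift removed). The HOXD12 to HOXD13 bin, which also holds EVX2, had 50.4 and 49.5 CPM in knockdown, against 56.9 and 61.9 CPM in control (log2 fold change -0.25, and -0.02). The HOXD1 to HOXD4 bin had 52.4 and 51.8 CPM in knockdown, against 60.3 and 62.0 CPM in control (log2 fold change -0.23, and 0.00). All 3 HOXD bins thus passed under TMM and stood near 0 with the drift removed. HOXD13 patterns the digits, and HOXD10 takes part in the identity of lumbar motor neurons.

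HOXB had the smallest median within-bin log2 fold change under TMM, -0.13. The HOXB6 to HOXB9 bin held 70.4 and 70.1 CPM in knockdown, against 80.7 and 89.3 CPM in control (log2 fold change -0.28, and 0.03 with the drift removed). The HOXB3 to HOXB6 bin held 60.1 and 60.6 CPM in knockdown, against 64.8 and 69.2 CPM in control (log2 fold change -0.15; edgeR adjusted p = 0.0414; and 0.11 with the drift removed). This call was also lost without control 2. The bins of HOXB13, a prostate and tail gene set apart from the rest of its cluster, and of HOXB1 to HOXB3 did not pass, with log2 fold changes of -0.11 and -0.10. The HOXB13 bin had 45.3 and 44.1 CPM in knockdown, against 47.9 and 48.5 CPM in control, and the HOXB1 to HOXB3 bin 25.8 and 26.0 CPM in knockdown, against 28.4 and 27.0 CPM in control. With the drift removed the HOXB13 and HOXB1 to HOXB3 bins stood at 0.08 and -0.01. In all 4 HOXB bins both knockdown libraries lay below both control libraries, as in 14 of the 15 HOX bins. The same held for 26.3% of all pairs.

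**Figure D1:**
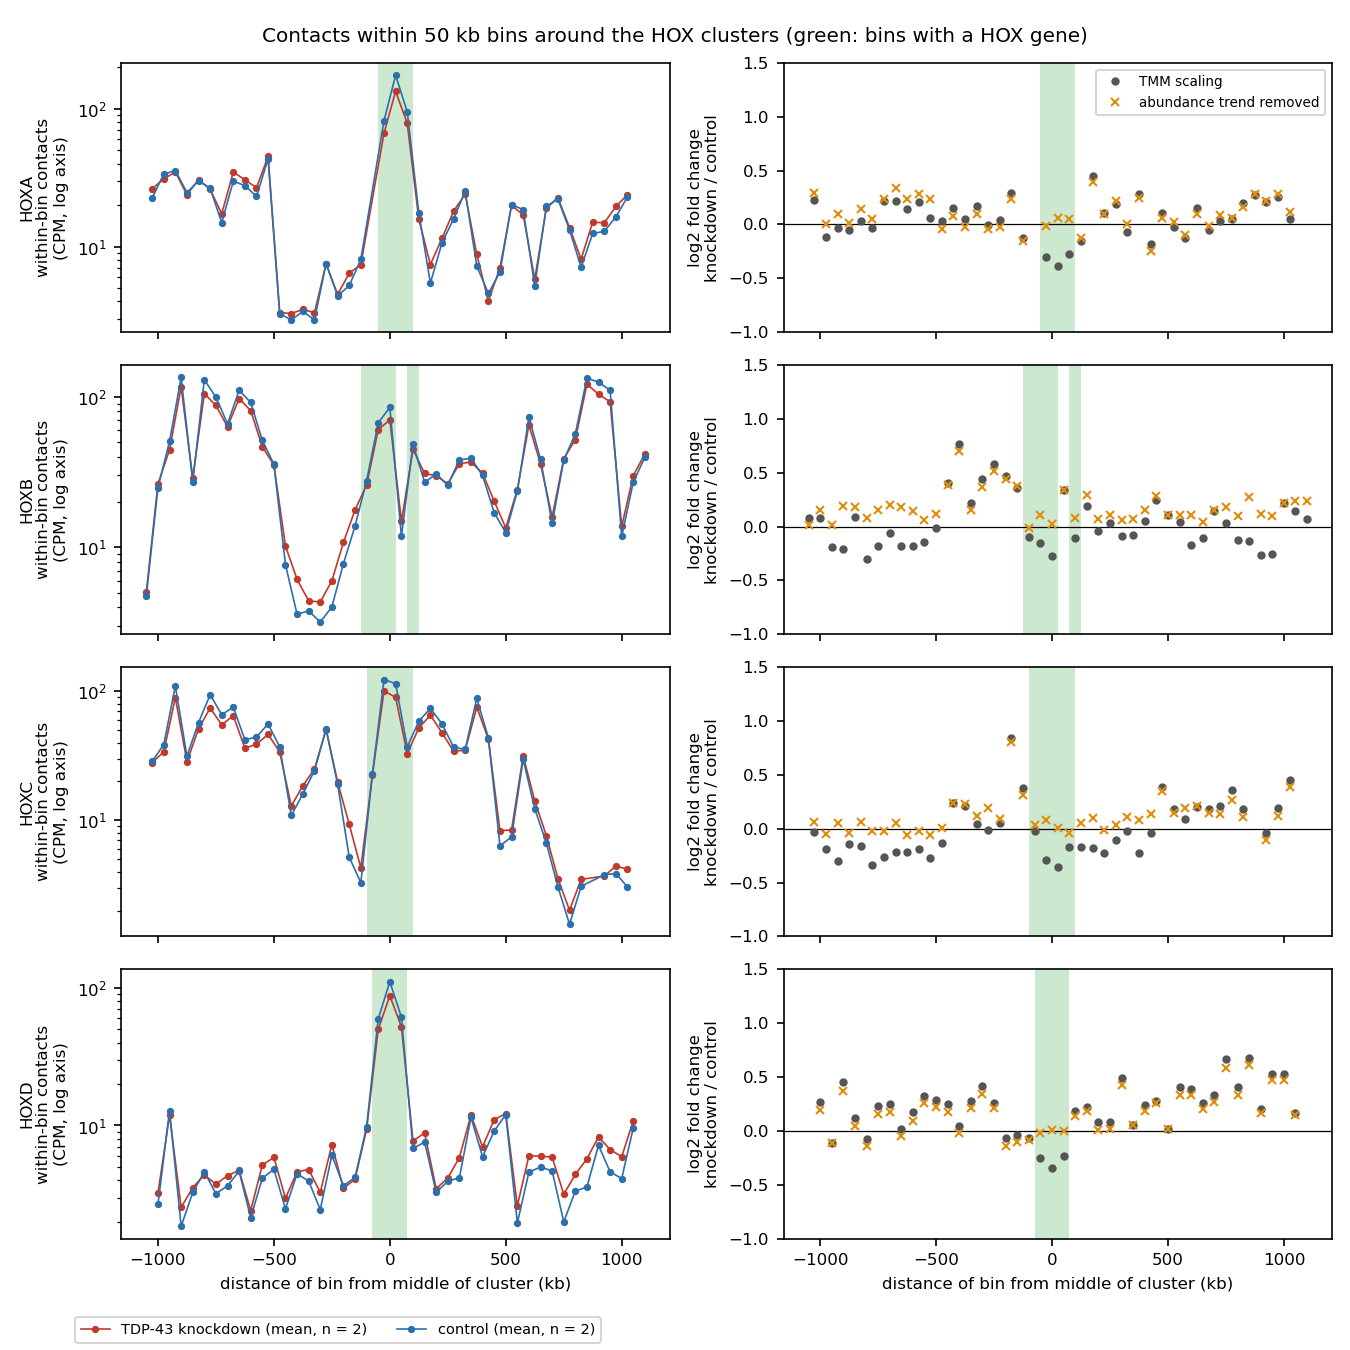
Within-bin contacts in 50 kb bins around each HOX cluster, with CPM on a log axis at left (points are means of 2 knockdown and 2 control libraries) and log2 fold changes, knockdown over control, at right under both scalings. The HOX bins, shaded green, lie above most flanking bins for HOXA and HOXD and are lower in knockdown under TMM, with log2 fold changes between -0.39 and -0.02, but between -0.04 and 0.11 with the drift removed.

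Within-bin contacts of the flanks, out to 1 Mb from each cluster, are given for comparison. Around HOXD the 39 flanking bins were sparse, with a median of 5.16 CPM in knockdown and 4.19 CPM in control, and 7 of them rose and none fell. Their median log2 fold change was 0.25 (0.19 with the drift removed), while that of the 3 HOXD bins was -0.25 (0.00). Around HOXA 8 of 38 flanking bins rose and none fell. Around HOXB 9 rose and 9 fell of 40, and around HOXC 5 rose and 13 fell of 37. Over all within-bin pairs 7.40% were higher and 14.3% lower. Once the drift was removed, 10 flanking bins were higher around HOXA, 21 around HOXB, 6 around HOXC and 5 around HOXD, with none lower, against 7.89% higher and 5.12% lower over all within-bin pairs. Whether HOX bins and flanks differed in fold change was not tested.

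**Figure D2:**
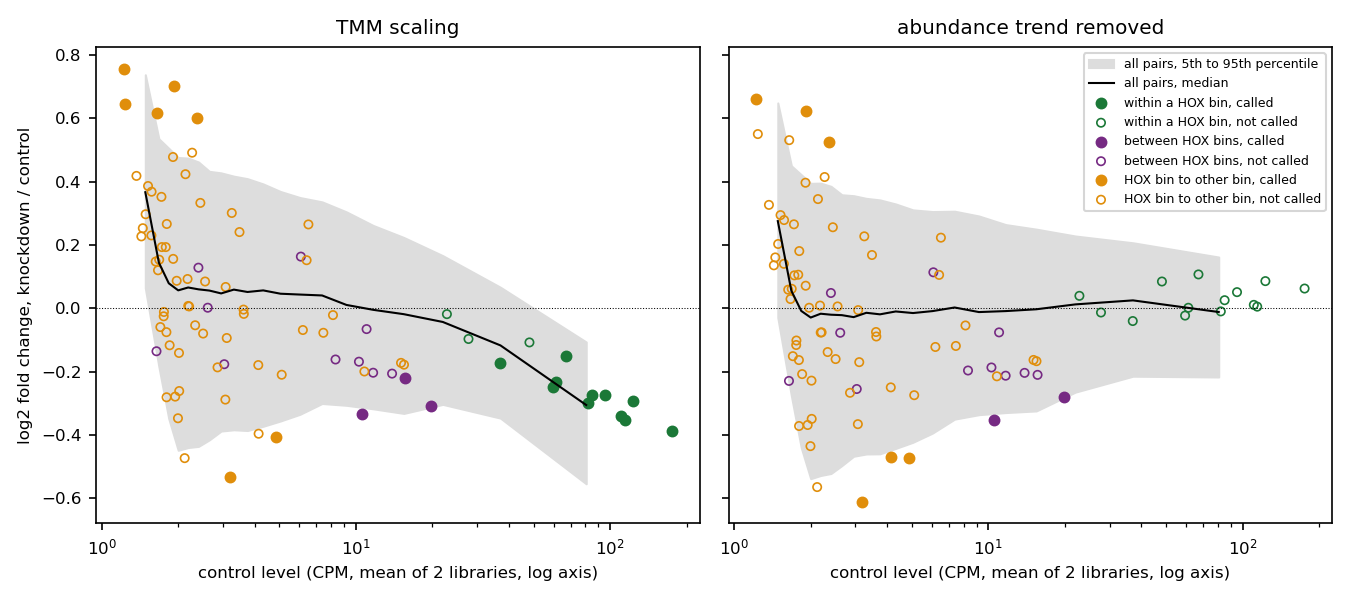
Log2 fold change, knockdown over control, of HOX pairs against their control level in CPM (log axis), under TMM at left and with the drift removed at right; filled points passed the test, and the grey band and line give the 5th to 95th percentile and median of all pairs in classes of level. The HOX bins follow the falling line of all pairs under TMM and lie near 0 at right.

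Contacts between different HOX bins of a cluster were measured in 15 pairs, of which 12 had negative log2 fold changes under TMM and 13 with the drift removed. They range from -0.33 to 0.16 under TMM. Of the 15, 3 fell and none rose, and 2 of the 3 also passed with the drift removed. All 3 are adjoining bins, 50 kb apart, a distance at which 5.64% of all pairs were lower and 5.80% higher. With the drift removed 5.34% of pairs at that distance were lower.

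The HOXA2 to HOXA6 bin touched the HOXA3 to HOXA13 bin with 15.6 and 16.3 CPM in knockdown, against 20.4 and 19.1 CPM in control. This was the strongest contact between HOX bins, at the 98.7th percentile of control levels for its distance. The mean fell to 15.9 ± 0.48 CPM in knockdown, against 19.8 ± 0.97 CPM in control, a log2 fold change of -0.31 ± 0.07 (edgeR adjusted p = 0.000568), and -0.28 with the drift removed (edgeR adjusted p = 0.00444). It did not pass without the first knockdown library. The next pair along, the HOXA3 to HOXA13 bin with the EVX1 side, had 13.4 CPM in both knockdown libraries, against 15.1 and 16.1 CPM in control. Its log2 fold change of -0.22 (edgeR adjusted p = 0.0386) became -0.21 with the drift removed and no longer passed (edgeR adjusted p = 0.0765). That call was also lost with DESeq2, without control 2 and without either knockdown library.

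The third lower contact joined the HOXD12 to HOXD13 bin with the HOXD8 to HOXD12 bin. It had 8.23 and 8.52 CPM in knockdown, against 11.3 and 9.82 CPM in control, so that both knockdown libraries were below both control libraries. The log2 fold change was -0.33 ± 0.10 (edgeR adjusted p = 0.00752), and -0.35 with the drift removed (edgeR adjusted p = 0.0102). Without control 1, or without either knockdown library, it no longer passed. On the other side, the HOXD8 to HOXD12 bin met the HOXD1 to HOXD4 bin with 7.59 and 7.29 CPM in knockdown, against 8.34 and 8.30 CPM in control, a log2 fold change of -0.16 that did not pass (edgeR adjusted p = 0.312).

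In HOXC all 4 contacts between HOX bins had smaller means in knockdown, and none passed. The HOXC10 to HOXC12 bin met the HOXC4 to HOXC9 bin with 11.8 and 12.2 CPM in knockdown, against 13.1 and 14.6 CPM in control (log2 fold change -0.21; edgeR adjusted p = 0.0744). The HOXC13 bin met the HOXC10 to HOXC12 bin with 10.2 and 10.9 CPM in knockdown, against 10.8 and 11.3 CPM in control, and there the groups overlapped. The HOXC4 to HOXC9 bin met the bin of the downstream end of HOXC4 with 9.21 and 9.09 CPM in knockdown, against 9.88 and 10.7 CPM in control (log2 fold change -0.17). The pair 100 kb apart, HOXC10 to HOXC12 with the downstream end of HOXC4, was near the bottom of the list, at 1.50 CPM in knockdown and 1.64 CPM in control.

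HOXB was the exception in sign under TMM, where only 1 of its 4 contacts between HOX bins was negative. With the drift removed 2 of the HOXB contacts were negative, and none passed under either scaling. Its HOXB1 to HOXB3 bin met the HOXB3 to HOXB6 bin with 7.09 and 6.53 CPM in knockdown, against 6.21 and 5.95 CPM in control, a positive log2 fold change of 0.16 that did not pass (edgeR adjusted p = 0.368). The next adjoining pair, HOXB3 to HOXB6 with HOXB6 to HOXB9, had 10.5 and 9.85 CPM in knockdown, against 11.6 and 11.8 CPM in control (log2 fold change -0.20; edgeR adjusted p = 0.108). HOXB1 to HOXB3 with HOXB6 to HOXB9 had 2.62 CPM in both groups. The contact of HOXB6 to HOXB9 with HOXB13, across the gap that separates HOXB13 from the others, had 2.69 and 2.56 CPM in knockdown, against 2.38 and 2.43 CPM in control (log2 fold change 0.13), and did not pass.

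The HOXA2 to HOXA6 bin met the EVX1 side over 100 kb at 2.72 and 2.66 CPM in knockdown, against 2.58 and 3.49 CPM in control. The groups overlapped, and the pair did not pass.

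**Figure D3:**
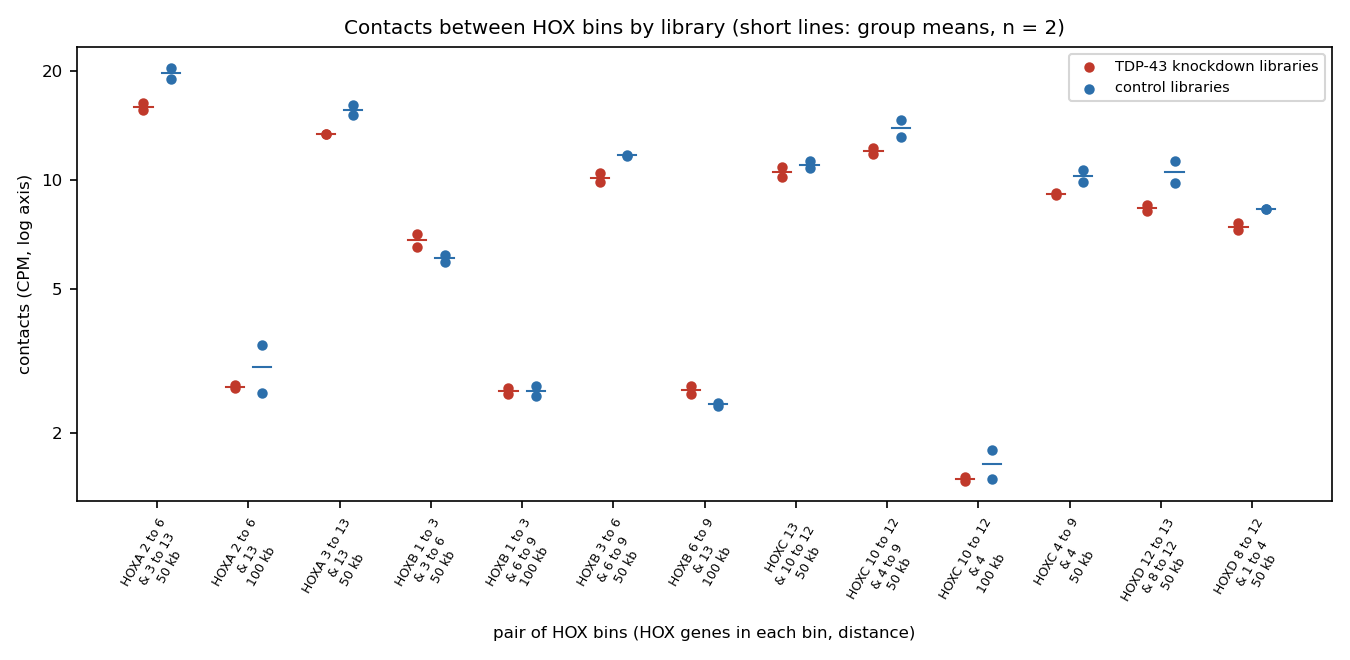
Contacts between different HOX bins in each library, in CPM on a log axis, with pairs named by the HOX genes in each bin and their distance; short lines mark group means (n = 2). In 10 of the 13 pairs drawn the fitted fold change is negative, and the pair of HOXA2 to HOXA6 with HOXA3 to HOXA13 is the strongest, at 15.9 CPM in knockdown and 19.8 CPM in control.

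A ratio set each adjoining contact against the contacts within its own bins (the contact as a percent of the geometric mean of the 2 within-bin counts). The ratio cancels a factor common to a whole library. It does not remove the drift with contact level, and within-bin contacts are at a higher level than adjoining ones. For the 10 adjoining pairs of HOX bins its median was 16.2% in knockdown and 14.8% in control, and the log2 change ran between -0.04 and 0.29 with a median of 0.10. In 7 of the 10 both knockdown libraries lay above both control libraries, and in none did both lie below. Over all 19787 adjoining pairs the median log2 change was 0.18, with 10470 higher and 718 lower in that sense. The 3 pairs whose groups overlapped included both that fell under both scalings: HOXA2 to HOXA6 with HOXA3 to HOXA13 (16.76% and 16.96% in knockdown, 17.8% and 15.2% in control) and HOXD12 to HOXD13 with HOXD8 to HOXD12 (12.4% and 12.9% in knockdown, 14.3% and 11.8% in control). The highest log2 change, 0.29, was that of HOXB1 to HOXB3 with HOXB3 to HOXB6, at 17.996% and 16.4% in knockdown and 14.5% and 13.7% in control. With the drift removed, the HOXA and HOXD contacts that fell under both scalings had log2 fold changes of -0.28 and -0.35. The contacts within their own bins then stood between -0.02 and 0.06.

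Contacts of HOX bins with the surrounding DNA numbered 64, and 5 rose and 2 fell, 10.9%, against 9.60% of all pairs between different bins (3.76% higher and 5.84% lower). With the drift removed 3 rose and 3 fell, 9.38%, against 8.45% (1.44% higher and 7.01% lower). The share is close to that of all between-bin pairs under both scalings. The list includes only pairs above a mean abundance of -0.01 (log2), so a pair that was weak in control could be listed only through a higher level in knockdown: 32 HOX pairs lay within 0.5 (log2) of that limit, among them 3 of the higher pairs and none of the lower.

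HOXA reached farthest. Its HOXA3 to HOXA13 bin met chr7:25850001-25900000, a bin 1300 kb away without a protein-coding gene, with 1.97 and 2.43 CPM in knockdown, against 3.22 and 3.16 CPM in control. Only 6 listed pairs span that distance. The log2 fold change was -0.53 ± 0.18 (edgeR adjusted p = 0.0316), and -0.61 with the drift removed. The call was lost without either knockdown library and when scaling was done within distance classes. Of all 905 pairs 500 kb or more apart, 12.4% were lower and 0.552% higher under TMM (17.3% and 0.331% with the drift removed). Of the 14 HOX pairs that far apart, 1 was lower under TMM. The HOXA3 to HOXA13 bin also met SNX10, a sorting nexin gene, over 800 kb with 1.54 CPM in knockdown and 2.12 CPM in control. This did not pass (log2 fold change -0.47, edgeR adjusted p = 0.148). On the same side its contact with SKAP2 over 500 kb stood at 3.60 CPM in knockdown and 3.62 CPM in control. On the other side it met the bins of JAZF1, a zinc finger gene, over 750 to 900 kb at 2.38 to 2.52 CPM in knockdown and 2.51 to 3.07 CPM in control. None of these passed.

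HOXB had the most higher contacts. The HOXB13 bin met chr17:48850001-48900000, with CALCOCO2, an autophagy receptor gene, and ATP5MC1, a subunit of the mitochondrial ATP synthase, at 3.14 and 3.11 CPM in knockdown, against 1.74 and 2.10 CPM in control. Its mean rose to 3.13 ± 0.02 CPM in knockdown, against 1.92 ± 0.26 CPM in control, a log2 fold change of 0.70 ± 0.19 (edgeR adjusted p = 0.00414) and 0.62 with the drift removed (edgeR adjusted p = 0.0167). It did not pass without either knockdown library. In all 5 higher pairs of the clusters both knockdown libraries lay above both control libraries. The same held for 29.8% of all pairs. Pairs that pass a test of 2 against 2 libraries tend to be separated already, so this adds no support.

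The HOXB1 to HOXB3 bin with the gene-free bin before it, chr17:48450001-48500000, had 3.94 and 3.25 CPM in knockdown, against 2.45 and 2.28 CPM in control. Its log2 fold change of 0.60 (edgeR adjusted p = 0.00834) was 0.53 with the drift removed. This pair, outside the rule for named pairs, was named after its values were seen. It was not among the calls followed with each library left out, so its stability is not given. SKAP1, an adaptor of T cells that neighbours HOXB, met the HOXB3 to HOXB6 bin over 400 kb at 2.25 and 1.64 CPM in knockdown, against 1.03 and 1.45 CPM in control, and the HOXB6 to HOXB9 bin over 300 kb at 2.84 and 2.22 CPM in knockdown, against 1.60 and 1.70 CPM in control. Their log2 fold changes of 0.64 and 0.62 (edgeR adjusted p = 0.0371 and 0.0282) became 0.55 and 0.53 with the drift removed and no longer passed (edgeR adjusted p = 0.113 and 0.0809). Both calls were also lost with DESeq2, without control 1 and without knockdown 1, and the one over 300 kb without knockdown 2 as well. Both pairs lay within 0.5 (log2) of the list's lower limit. By control level the one over 400 kb held rank 563 of the 563 listed pairs at its distance. Contacts within both SKAP1 bins rose as well under TMM, with log2 fold changes of 0.41 and 0.44. With the drift removed they stood at 0.38 and 0.37, and the second no longer passed. The first of these SKAP1 bins met the HOXB6 to HOXB9 bin over 450 kb with the opposite sign, 1.57 CPM in knockdown and 2.00 CPM in control (log2 fold change -0.35), and did not pass.

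HOXC had the strongest contacts with its surroundings. The HOXC4 to HOXC9 bin met the bin of CBX5, which encodes the heterochromatin protein HP1 alpha, over 200 kb at 13.8 and 13.6 CPM in knockdown, against 15.3 and 15.6 CPM in control. It met the bin of SMUG1, a uracil DNA glycosylase gene, over 150 kb at 13.0 and 13.7 CPM in knockdown, against 16.004 and 14.1 CPM in control. In control these were 6.66 and 6.26 times the median of all listed pairs at the same distance. The HOXC10 to HOXC12 bin met CBX5 over 250 kb at 9.75 and 9.07 CPM in knockdown, against 10.5 and 11.1 CPM in control, 4.79 times the median. By control level they held rank 5 of 2856 listed pairs at 200 kb, rank 7 of 4377 at 150 kb and rank 8 of 1890 at 250 kb. In each the knockdown libraries lay below the control libraries, but none passed (log2 fold changes of -0.18, -0.17 and -0.20; edgeR adjusted p = 0.109, 0.132 and 0.133).

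Farther out, the HOXC10 to HOXC12 bin met chr12:54350001-54400000, with COPZ1, GPR84, ZNF385A and the integrin gene ITGA5, at 3.55 and 3.80 CPM in knockdown, against 4.89 and 4.85 CPM in control. The log2 fold change was -0.41 ± 0.14 (edgeR adjusted p = 0.0360), and -0.47 with the drift removed (edgeR adjusted p = 0.0168). The HOXC4 to HOXC9 bin met the same bin at 3.08 and 3.22 CPM in knockdown, against 4.07 and 4.23 CPM in control. This second pair missed the threshold under TMM (log2 fold change -0.40, edgeR adjusted p = 0.0663) and passed with the drift removed (-0.47, edgeR adjusted p = 0.0312). Of all pairs 200 to 450 kb apart, 7.40% were lower and 1.19% higher under TMM, and 10.6% and 0.385% with the drift removed. Their median log2 fold changes were -0.11 and -0.19. The call of the first pair was lost without control 2 or either knockdown library, with scaling within distance classes, and in a fit of between-bin contacts alone. On the HOXC13 side, the HOXC10 to HOXC12 bin met the gene-free bin chr12:53850001-53900000 at 2.02 and 2.12 CPM in knockdown, against 0.837 and 1.61 CPM in control. Its log2 fold change was 0.76 ± 0.23 (edgeR adjusted p = 0.0121), and 0.66 with the drift removed, and with a control level at the 0.271th percentile for its distance it is 1 of the pairs at the list's lower limit. The call was lost with DESeq2 and without control 1 or either knockdown library.

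None of the 13 HOXD contacts with other bins passed under either scaling. The strongest joined the HOXD8 to HOXD12 bin with the gene-free bin chr2:176600001-176650000, 500 kb away on the HOXD1 side, at 5.09 and 6.69 CPM in knockdown, against 6.64 and 5.75 CPM in control. The groups overlapped (log2 fold change -0.07; edgeR adjusted p = 0.760), although the control level was 2.80 times the median at that distance. The bin before it, 450 kb away, stood at 4.13 CPM in knockdown and 3.49 CPM in control (log2 fold change 0.24). On the HOXD13 side, the HOXD12 to HOXD13 bin met a gene-free bin 700 kb away at 3.19 CPM in knockdown and 2.27 CPM in control, and this difference just missed the threshold (log2 fold change 0.49; edgeR adjusted p = 0.0506). Its contact with LNPK, the neighbouring gene on that side, was 2.87 CPM in knockdown and 2.14 CPM in control (log2 fold change 0.42; edgeR adjusted p = 0.122).

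**Figure D4:**
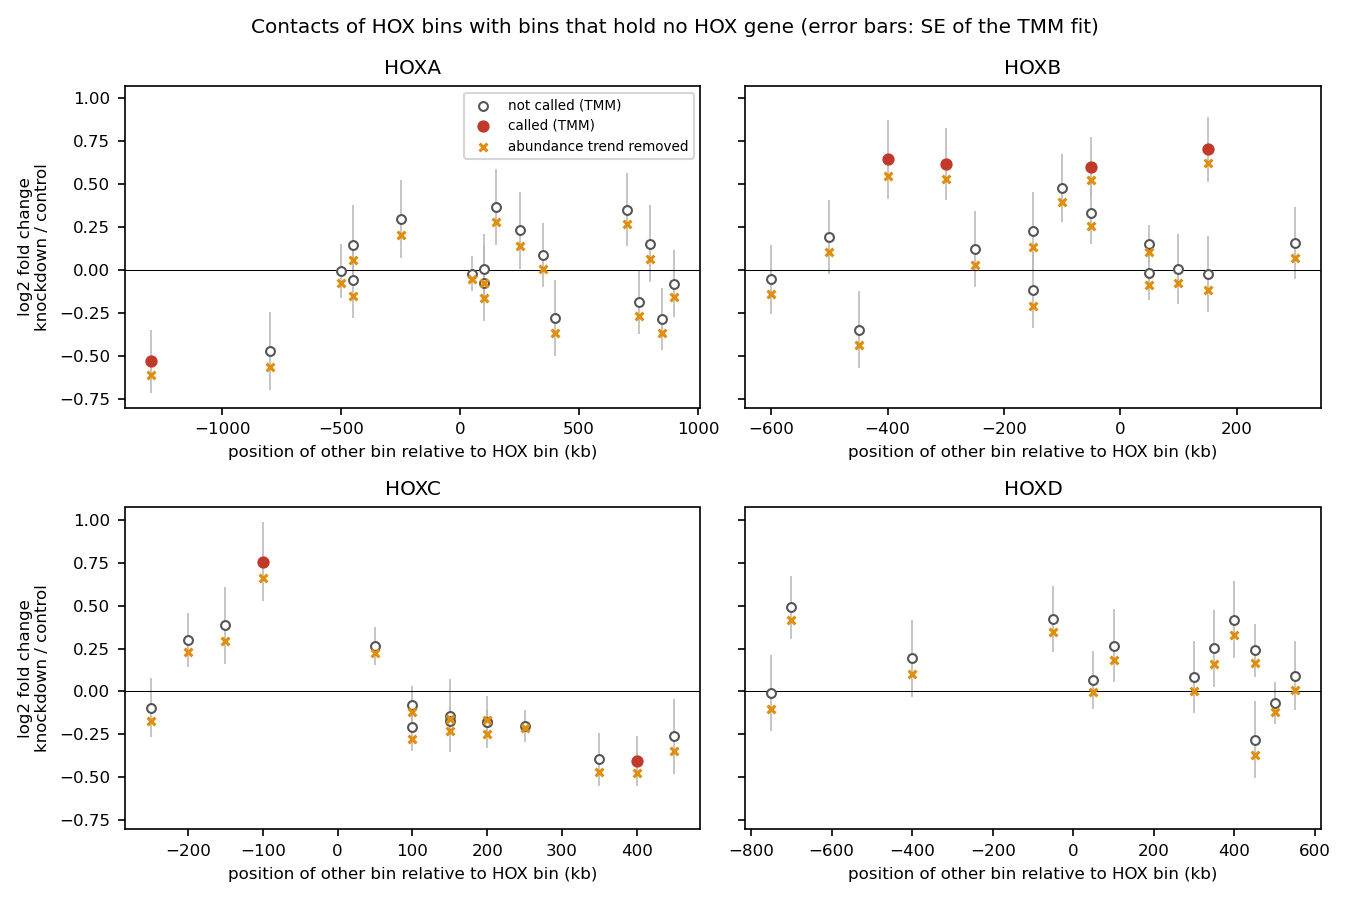
Log2 fold changes, knockdown over control, of contacts between HOX bins and bins without a HOX gene, by the distance in kb of the other bin from the HOX bin of the same pair; bars are the SE of the TMM fit, filled points passed it, and crosses give the value with the drift removed. HOXB has 4 higher pairs and HOXC shows negative values at distances of 100 kb or more on its HOXC4 side (the 1 pair at 50 kb is at 0.26), while none of the 13 HOXD pairs passed. The median of all pairs under TMM also falls with distance, from 0.09 at 50 kb to -0.01 at 100 to 150 kb and -0.11 at 200 to 450 kb.

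Read gene by gene, 37 of the 39 HOX genes overlapped at least 1 called pair under TMM, against 57.4% of all protein-coding genes: 24 only lower pairs, 3 only higher and 10 both, where all genes had 41.6%, 11.8% and 4.07%. After removal of the drift it was 28, against 37.7% of genes. These counts carry little weight of their own, since the genes sit in 15 bins. HOXC13, the end gene of its cluster, overlapped no called pair under either scaling. HOXB1, HOXB2 and HOXB13 overlapped higher pairs alone, and no HOXA or HOXD gene overlapped a higher pair.

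Proteins that act with HOX proteins or on HOX chromatin were taken as a list of 35 genes: the PBX, MEIS and PKNOX cofactors, Polycomb and Trithorax subunits, KDM6A and KDM6B, CTCF and the CDX factors. Of these, 32 overlap a listed pair and 22 overlapped a called one, 18 only lower, 1 only higher and 3 both, against 57.4% of all genes (41.6% only lower, 11.8% only higher and 4.07% both). With the drift removed it was 14, of which 10 only lower, 2 only higher and 2 both, against 37.7% of all genes (23.3% only lower, 12.4% only higher and 2.11% both). At their own loci increases under TMM included those at JARID2, a partner of the Polycomb methyltransferase (3.52 ± 0.26 CPM in knockdown, 2.25 ± 0.43 CPM in control; log2 fold change 0.64), MEIS1 (0.43) and KDM6B, an H3K27 demethylase (0.32). These 3 are the genes with calls in both directions: JARID2 and MEIS1 each overlapped 2 higher pairs, with 1 and 2 lower ones, and KDM6B overlapped 1 higher and 2 lower. The largest decreases were at CDX2, which switches on HOX genes in the mouse (1.54 ± 0.07 CPM in knockdown, 2.32 ± 0.48 CPM in control, log2 fold change -0.60), KMT2B (-0.48), PKNOX2 (-0.47) and the shared bin of CBX2 and CBX8 (-0.45). The last is a contact within a bin, and the others join bins 50, 150 and 250 kb apart. KMT2B had 2.81 ± 0.15 CPM in knockdown and 3.91 ± 0.99 CPM in control. PKNOX2 had 2.93 ± 0.15 CPM in knockdown and 4.06 ± 1.01 CPM in control. With the drift removed the pairs of MEIS1 and KDM6B no longer passed at 0.37 and 0.28 (edgeR adjusted p = 0.0584 and 0.103), and the CBX2 and CBX8 bin no longer passed at -0.05 (edgeR adjusted p = 0.355).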

How the data were processed

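Micro-C contacts were compared between 2 TDP-43 knockdown and 2 control libraries. HiC-Pro and hg38 are named in the submitters' processing notes, and versions are not given in the sources used here; the titles call the libraries merged without saying what was merged. The deposited table holds raw contact counts per library for pairs of 50 kb bins. Further columns, per the file headers, are the authors' log2 fold change, their log2 mean abundance, a score (the F statistic) and p-values, raw and adjusted. The list holds the more abundant pairs only, so the totals understate library depth. Averaged over all pairs, the libraries of a group differ by more than counting error (chi-square per degree of freedom 4.80 for knockdown and 8.86 for control). In pairs of low count, such as the weaker contacts of HOX bins with other bins, counting error is a larger part of the spread.

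All 89239 pairs were fitted together in edgeR 4.0.16 (quasi-likelihood F test, TMM; R 4.3.3, limma 3.58.1), with Benjamini-Hochberg adjustment over all of them and a threshold of 0.05; filterByExpr removed 0 pairs, and the common dispersion corresponds to a coefficient of variation of 9.01%. The second scaling used loess offsets per library, which gave fold changes within 0.00235 (log2) of those in the authors' deposited table. CPM are TMM-scaled, fold changes are knockdown over control, and the SE is the size of the log2 fold change over the square root of F. Scripts were tested on simulated data. Gene bodies and sequences came from RefSeq GRCh38.p14, and a bin is its listed middle ± 25 kb.

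Text names the pairs of HOX bins, except those of 1 bin, which like 1 cofactor gene are not reported here or drawn in the figures, though they stay in the fit and the counts. It also names, per cluster, up to 3 increases and 3 decreases to other bins that passed with groups not overlapping, and up to 4 cofactor or Polycomb genes per direction. Other contacts with surrounding bins are given to describe each cluster's listed pairs and were picked with their values known. Members and lists were chosen with earlier results of these data known. Alternatives were DESeq2 1.42.0, the loess offsets, TMM within distance classes or on the cluster's own chromosome, no filter, contacts within or between bins alone, other thresholds, a replicate block, each library left out, the authors' deposited table, and other rules for membership. Replicate numbers did not pair the libraries (r = 0.0214 between the groups' replicate differences), so the block is used only as an alternative. Python 3.11.15 with pandas 2.3.3 and matplotlib 3.10.9 was used for joins and figures.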

Additional observations from a re-analysis of the deposited data

How the results depend on the processing

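Of the named HOX calls, 20 in all, 14 were lost with the drift removed, among them the 11 within HOX bins, and 14 were lost without knockdown 1, 12 without knockdown 2, 4 without control 1 and 3 without control 2. DESeq2 lost 4, all between bins, and the threshold of 0.01 lost 8. The 20 are the calls named by rule, so they leave out the call of HOXB1 to HOXB3 with the gene-free bin before it. With the drift removed, HOXA had 2 called pairs, HOXB 2, HOXC 3, HOXD 1 and the cofactor and Polycomb list 14 genes, and the HOXB median was 0.071 (log2). The authors' deposited table, which has the same trend removed, gave 2, 2, 3 and 1 and a HOXB median of 0.072. Both turned the sign within bins: to 0.062 and 0.051 for the HOXA3 to HOXA13 and HOXA13 start bins, 0.11, 0.025 and 0.084 for the HOXB3 to HOXB6, HOXB6 to HOXB9 and HOXB13 bins, 0.039, 0.086 and 0.0050 (0.0051 in the authors' deposited table) for the HOXC13, HOXC10 to HOXC12 and HOXC4 to HOXC9 bins, and, in HOXD, 0.011 for HOXD8 to HOXD12 and 0.0015 (loess) or 0.0016 (authors' deposited table) for HOXD1 to HOXD4. The pair of HOXB1 to HOXB3 with HOXB6 to HOXB9, at 0.0016 under TMM, became -0.077 under both, -0.013 with DESeq2, -0.015 with between-bin contacts alone, -0.047 with TMM within distance classes, and between -0.055 and 0.047 with a library left out. The causes of these changes were not tested beyond the trend's own removal.

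Between-bin contacts alone gave 2 called HOXA, 2 HOXB, 1 HOXC and 1 HOXD pairs of 2510 in all, with fewer pairs tested, and a HOXB median of 0.14. Within-bin contacts alone gave 3 HOXA, 1 HOXB and 3 HOXC pairs and medians of -0.28, -0.12, -0.22 and -0.24 for HOXA to HOXD. Counting only pairs with both bins HOX gave 2 for HOXB and 3 for HOXC. At 0.01, HOXB had 3, HOXC 2 and all pairs 8738; at 0.1, HOXC had 8. The HOXB median was 0.11 with DESeq2, 0.079 with TMM within distance classes and 0.16 on its own chromosome. With each library left out, called pairs ran from 3 to 7 in HOXA, 1 to 5 in HOXB, 1 to 7 in HOXC, 1 to 5 in HOXD and 4910 to 16764 in all. The lowest totals came without knockdown 1 (4910) and knockdown 2 (6373). Medians ran from -0.16 to -0.067 in HOXA, 0.071 to 0.12 in HOXB, -0.19 to -0.14 in HOXC and 0.014 to 0.11 in HOXD. A lone library was assumed to vary like the other group. Left out in turn, the libraries put HOXA2 to HOXA6 with the HOXA13 start between -0.39 and 0.059, the HOXC13 bin between -0.056 and 0.018, and HOXC10 to HOXC12 with downstream HOXC4 between -0.28 and 0.0074. A replicate block gave 6, 6, 5 and 5 called pairs in HOXA to HOXD and 15663 in all, and changed no named call. With 2 libraries a group, differences of small size could not be told from the spread.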
